A study of Homo sapiens with 4 samples.

Results

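Integrins and laminins are the receptors and the ligands by which epithelial cells hold on to the basement membrane. An integrin is a pair of transmembrane chains, an α chain that largely sets the ligand and a β chain that links to the cytoskeleton, and the chains leave the endoplasmic reticulum only as a pair. A laminin is a trimer of an α, a β and a γ chain that assembles inside the cell before secretion, and its α chain carries the globular end that integrins bind. In airway epithelium, laminin-332 and its receptors α3β1 and α6β4 anchor basal cells and guide their spreading over a wound.

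The 34 genes described here were 24 integrin genes (16 α and 8 β chains) and 10 laminin genes, out of 23004 gene names in the deposited data. They were chosen by name from these families, and the gene of the γ2 chain, the third chain of laminin-332, was not among them and was not analysed here. RNA came from BEAS-2B, an immortalized line of human bronchial epithelium, and all 4 libraries were of this line, labelled as lung. One group was left untreated (2 libraries) and the other was exposed to 100 µM formaldehyde, a reactive aldehyde that joins DNA to protein, for 48 h (2 libraries). The series title links the compound to cell transformation and to the assembly of chromatin. The labels name no separate cultures, so p-values measure only how far these libraries differ, and part of that may be technical. An exact permutation test of 2 against 2 libraries cannot give a p under 0.3333.

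The values are FPKM, fragment numbers divided by transcript length in kilobases and by library depth, which allows levels to be compared between genes. The depth was 14.2 to 26.5 M fragments (M, mega) and was highest in untreated replicate 2. Epithelial identity was partial by messenger RNA. KRT8 and KRT18, keratins of simple epithelium, stood at 206 FPKM or more in every library, while KRT5 and TP63, which define airway basal cells, were listed at 0 in all 4. CDH1, the epithelial cadherin, was at 0.631 FPKM or less. KRT7, KRT8 and KRT18 were higher in both formaldehyde libraries. KRT7 was at 191 and 140 FPKM without formaldehyde and at 531 and 319 FPKM after it. The other epithelial markers did not share this. CDH1 and KRT19 were lower in both, near 0, and KRT17 and EPCAM had overlapping groups. KRT17 was at 26.4 and 178 FPKM without formaldehyde and at 61.2 and 48.0 FPKM after it. Mesenchymal markers were mixed. VIM, an intermediate filament, was at 642 FPKM or more and higher in both formaldehyde libraries. In VIM, formaldehyde replicate 2 (786 FPKM) exceeded untreated replicate 1 (782 FPKM) by little. COL1A1, a collagen I chain, was lower in both, at 279 and 568 FPKM without formaldehyde against 137 and 254 FPKM after it. THY1 and PDGFRB, other mesenchymal markers, had overlapping groups. THY1 was at 144 and 203 FPKM without formaldehyde and at 139 and 165 FPKM after it. PDGFRB was at 21.8 and 29.97 FPKM without formaldehyde and at 7.40 and 22.2 FPKM after it. COL1A2, COL3A1, PDGFRA, LUM and DCN were at 1.34 FPKM or less. The 9 epithelial markers summed to 736 and 819 FPKM in untreated replicates 1 and 2 and to 1400 and 1204 FPKM in the formaldehyde libraries, and the 9 mesenchymal ones to 1227 and 1444 against 1328 and 1228 FPKM. Their part in the results on adhesion genes was not tested. The 5 endothelial markers stayed under 0.1 FPKM in every library. In bulk RNA, fewer cells of a kind and less RNA per cell cannot be told apart.

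Of the 34 genes, 18 had a mean of at least 1 FPKM over the 4 libraries and were tested, 11 integrins and 7 laminins, and 16 fell under that filter. Below the filter, 13 genes stayed under 1 FPKM in every library (highest 0.695). Just outside it were LAMA4, ITGB8 and ITGA2, with means of 0.748, 0.762 and 0.887 FPKM, and just inside it were LAMA5, LAMA1 and ITGA1, with means of 2.03, 2.40 and 2.44 FPKM. With limma on log2(FPKM + 1), 0 of the 18 genes passed an adjusted p of 0.05, at a background of 0.153% over the 12407 genes tested. The limma adjusted p was 0.9999 for each of the 18. Only LAMB3 had an unadjusted p under 0.05, where the background is 2.76%. In the limma fit with no filter LAMB3 was not under 0.05, and only ITGB8, lower with formaldehyde, was. Over all genes, 956 of 23004 were under 0.05 in that fit. In 3 genes each formaldehyde library exceeded each untreated one, ITGA3, ITGB5 and LAMB3 (background 16.2%), and in 1 gene, ITGA1, each was lower (background 10.7%). Without the filter, 6 of the 34 genes were higher in this sense (background 11.5%), with ITGA2, ITGAX and ITGB2 added, and 4 were lower (background 9.43%), with ITGB7, ITGB8 and LAMA4 added. These shares are near the background.

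**Figure D1:**
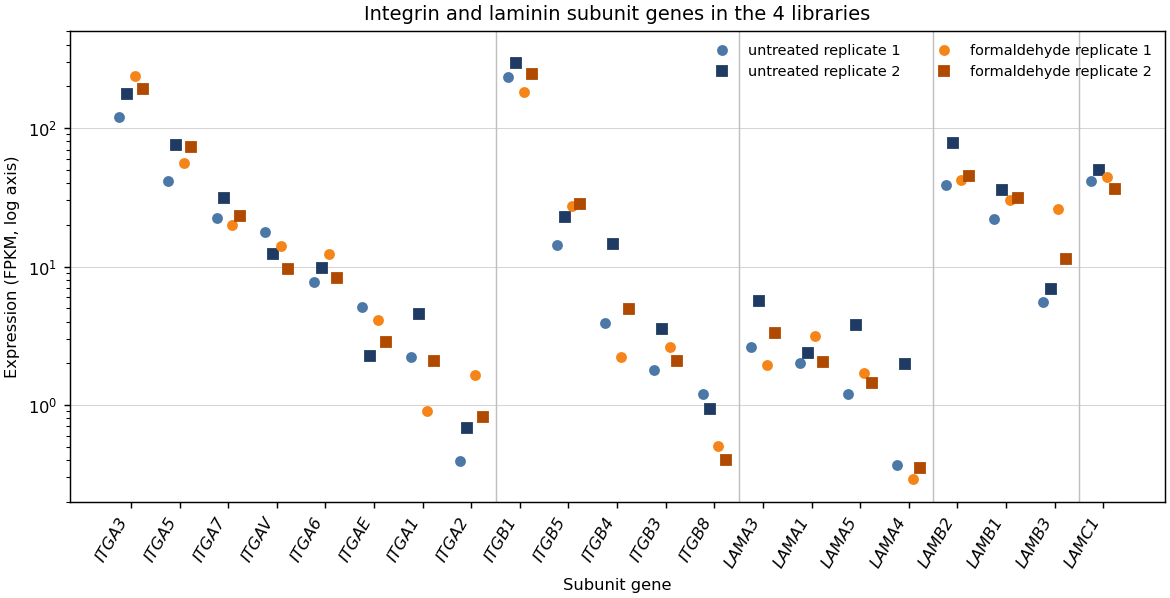
FPKM (log axis) of 21 of the 34 subunit genes in each of the 4 libraries, grouped as integrin α, integrin β, laminin α, laminin β and laminin γ chains; the 13 genes under 1 FPKM in every library are not drawn. LAMB3 shows both formaldehyde libraries above both untreated ones, and many genes have their highest point in untreated replicate 2.

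Splicing sets the cytoplasmic tail of ITGA3, ITGA6 and ITGB1 and the ligand-facing part of ITGA7, and the exons that carry those choices are shown because the transcripts compared further on differ by them. Each line gives the last 30 bases of the preceding exon in lower case and the coding part of the alternative exon in capitals, read from GENCODE transcripts (GRCh38), and the coordinates are those of the capitals.
ITGA3 NM_002204, chr17:50088225-50088332, plus strand: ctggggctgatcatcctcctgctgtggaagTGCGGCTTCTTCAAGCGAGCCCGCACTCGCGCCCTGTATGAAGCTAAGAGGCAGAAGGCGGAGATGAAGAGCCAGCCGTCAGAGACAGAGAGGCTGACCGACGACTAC
ITGA6 NM_000210, chr2:172501772-172501876, plus strand: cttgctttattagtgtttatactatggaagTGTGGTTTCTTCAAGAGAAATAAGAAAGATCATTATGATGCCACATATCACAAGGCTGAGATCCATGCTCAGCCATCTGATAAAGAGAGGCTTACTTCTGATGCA
ITGB1 NM_033668, chr10:32907072-32907143, minus strand: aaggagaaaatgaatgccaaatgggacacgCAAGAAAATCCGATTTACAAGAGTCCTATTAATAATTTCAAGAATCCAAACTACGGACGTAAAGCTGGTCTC
ITGA7 NM_001144996, chr12:55700262-55700393, minus strand: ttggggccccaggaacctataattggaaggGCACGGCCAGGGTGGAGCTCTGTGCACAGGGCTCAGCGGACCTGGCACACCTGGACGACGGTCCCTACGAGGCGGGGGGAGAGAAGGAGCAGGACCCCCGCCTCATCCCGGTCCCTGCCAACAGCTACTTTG
ITGA7 NM_002206, chr12:55699870-55699989, minus strand: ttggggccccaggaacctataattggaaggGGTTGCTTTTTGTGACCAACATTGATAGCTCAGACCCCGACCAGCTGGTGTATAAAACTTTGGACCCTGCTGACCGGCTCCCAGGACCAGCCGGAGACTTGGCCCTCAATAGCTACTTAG

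The β1 chain, ITGB1 (chromosome 10, hg19 33189246 to 33247293), which pairs with most α chains, was the most abundant of the 34 genes by mean. Its level was 233 and 297 FPKM in untreated replicates 1 and 2, against 182 and 247 FPKM in the same-numbered formaldehyde libraries. The groups overlapped, since formaldehyde replicate 2 lay above untreated replicate 1. The means were 265 ± 44.8 and 215 ± 45.8 FPKM (SD, n = 2 each), and the log2 fold change was -0.31 ± 0.28 (SE). ITGB1 made up 91.6% and 87.6% of all β chain FPKM in the untreated libraries and 84.5% and 87.4% in the formaldehyde libraries.

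ITGB5 (chromosome 3, hg19 124481795 to 124606144) encodes the β5 chain, which pairs with αV in a vitronectin receptor. It was at 14.2 and 22.8 FPKM in the untreated libraries and at 27.5 and 28.1 FPKM in the formaldehyde libraries. Both formaldehyde libraries were higher than both untreated ones, and they were close to each other. The means were 18.5 ± 6.04 and 27.8 ± 0.417 FPKM (SD, n = 2 each), a ratio of 1.50, and the limma fit gave a log2 fold change of 0.60 ± 0.27 (SE), adjusted p = 0.9999. The share of ITGB5 in β chain FPKM was 5.59% and 6.72% untreated and 12.8% and 9.94% with formaldehyde. Its counts were 758 to 1978 fragments a library, with a counting error (2 SE) of 4.50% to 7.26%, which covers counting error only.

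ITGB4, the hemidesmosome chain with a long cytoplasmic tail that binds plectin, was at 3.88 and 14.5 FPKM without formaldehyde and at 2.22 and 4.92 FPKM after it. The highest value belonged to untreated replicate 2, and the other untreated library lay between the formaldehyde libraries. ITGB3, the β3 chain of the classical vitronectin receptor, was at 1.80 and 3.57 FPKM without formaldehyde and at 2.62 and 2.07 FPKM after it, so that both formaldehyde values fell between the untreated ones. ITGB8, which pairs with αV and binds latent TGF-β, fell under the filter, at 1.20 and 0.940 FPKM without formaldehyde and at 0.508 and 0.399 FPKM after it. Both formaldehyde libraries were lower, and the untreated mean was 2.36 times the formaldehyde mean, from 173 and 213.2 fragments untreated and 62 and 76 fragments with formaldehyde. In a fit with no filter over 23004 genes, ITGB8 had a log2 fold change of -0.51 ± 0.10 (SE, limma unadjusted p = 0.0158, adjusted p = 0.937).

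The remaining β chains were near 0. ITGB6, an epithelial partner of αV, was listed at 0 in 3 libraries and at 0.0410 FPKM in formaldehyde replicate 2. ITGB7, a leukocyte chain, was at 0.105 to 0.348 FPKM and lower in both formaldehyde libraries, with 6 to 16 fragments a library. ITGB2, the common β chain of leukocyte integrins, was at 0.0220 and 0.0139 FPKM without formaldehyde and at 0.234 and 0.0332 FPKM after it. The leukocyte markers read in the same libraries stood in sum at 18.3 and 31.2 FPKM without formaldehyde and at 51.7 and 32.6 FPKM after it. Of these markers, CD3E and CD53 were among those listed at 0 in every library and PTPRC, the pan-leukocyte marker, was at 0.0232 FPKM or less. CD68, a lysosomal protein of macrophages, was at 12.8 and 16.4 FPKM without formaldehyde and at 42.8 and 22.0 FPKM after it (limma unadjusted p = 0.0365, adjusted p = 0.9999). CORO1A was at 1.53 and 2.69 FPKM without formaldehyde and at 4.75 and 4.02 FPKM after it (limma unadjusted p = 0.0329, adjusted p = 0.9999). CD68, CORO1A, LAPTM5 and ITGB2 were all higher in both formaldehyde libraries. CD14, another marker of this list, did not share this. It was at 3.75 and 11.98 FPKM without formaldehyde and at 1.77 and 6.23 FPKM after it. Its groups overlapped, with a log2 fold change of -0.81 (limma). The part of leukocyte RNA in the ITGB2 values was not tested.

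Among α chains, ITGA3 (chromosome 17, hg19 48133340 to 48167849), the laminin-332 and laminin-511 receptor chain, was the most abundant. It was at 120 and 176 FPKM in the untreated libraries and at 237 and 193 FPKM in the formaldehyde libraries. Both formaldehyde values were higher, although formaldehyde replicate 2 exceeded untreated replicate 2 by little. The means were 148 ± 39.5 and 215 ± 31.2 FPKM (SD, n = 2 each), 1.45-fold, and the limma fit gave a log2 fold change of 0.55 ± 0.29 (SE), adjusted p = 0.9999. ITGA3 was 55.0% and 56.1% of α chain FPKM untreated and 68.2% and 61.4% with formaldehyde. The ratio of ITGB1 to ITGA3 was 1.94 and 1.69 untreated and 0.770 and 1.28 with formaldehyde, so that in formaldehyde replicate 1 ITGA3 exceeded the β1 chain.

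ITGA5, the fibronectin receptor chain, was at 41.4 and 75.0 FPKM without formaldehyde and at 55.6 and 72.9 FPKM after it, and the formaldehyde libraries fell between the untreated ones. Its log2 fold change was 0.19 ± 0.35 (SE, limma). ITGA7, a laminin receptor chain best known from muscle, was at 22.3 and 31.2 FPKM without formaldehyde and at 20.1 and 23.1 FPKM after it, with a log2 fold change of -0.28 ± 0.24 (SE). ITGAV, the common α chain of the vitronectin receptors, was at 17.9 and 12.4 FPKM without formaldehyde and at 14.2 and 9.61 FPKM after it, with a log2 fold change of -0.32 ± 0.29 (SE). In ITGAV the library of replicate number 1 was the higher of each group. None of these 3 genes separated the groups.

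ITGA6, the laminin receptor chain that pairs with β1 or β4, was at 7.71 and 9.70 FPKM without formaldehyde and at 12.4 and 8.25 FPKM after it. ITGAE, a chain known from intraepithelial lymphocytes, was at 5.13 and 2.27 FPKM without formaldehyde and at 4.09 and 2.87 FPKM after it, while its partner ITGB7 stayed at 0.348 FPKM or less. Neither gene separated the groups.

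The collagen receptor chains ITGA1 and ITGA2 differed in opposite directions at low levels. ITGA1 (chromosome 5, hg19 52084136 to 52249485) was at 2.21 and 4.54 FPKM without formaldehyde and at 0.904 and 2.09 FPKM after it. Both formaldehyde libraries were lower, formaldehyde replicate 2 by little against untreated replicate 1, and the untreated mean was 2.25 times the formaldehyde mean, and the limma fit gave a log2 fold change of -0.80 ± 0.40 (SE), adjusted p = 0.9999. ITGA2, which lies beside it in the genome (hg19 52285156 to 52390609), measured 0.396 and 0.684 FPKM without formaldehyde against 1.65 and 0.813 FPKM after it. The fragments behind ITGA2 were 51 and 138.8 untreated and 180.3 and 138.5 with formaldehyde. Per length and depth both formaldehyde libraries were higher, 2.28-fold in the mean. With no filter ITGA2 had a log2 fold change of 0.52 ± 0.26 (SE, limma unadjusted p = 0.151, adjusted p = 1). The difference between the changes of ITGA1 and ITGA2 was not tested.

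The 8 other α chains were at 0.695 FPKM or less in every library. ITGA8 was listed at 0 in all 4, and ITGAL and ITGAM, leukocyte chains, stayed at 0.0503 and 0.0619 FPKM or less. ITGA4, ITGA9, ITGA10 and ITGA11 peaked at 0.471, 0.695, 0.199 and 0.409 FPKM, with overlapping groups. ITGAX, another leukocyte chain, was at 0.174 and 0.340 FPKM without formaldehyde and at 0.490 and 0.370 FPKM after it, higher in both, with 13 to 40 fragments a library.

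**Figure D2:**
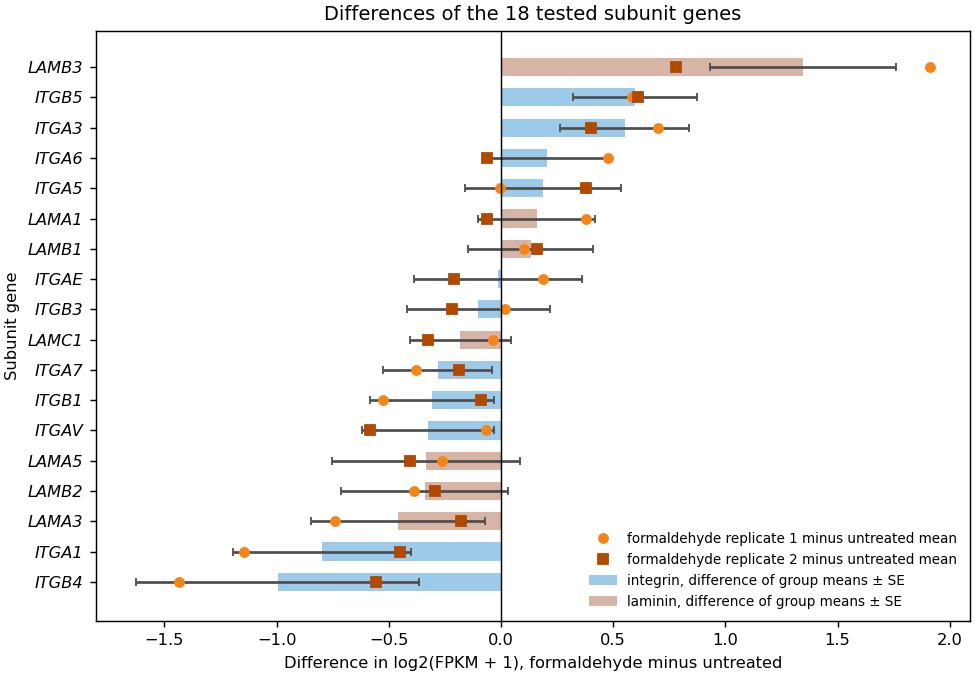
Difference in log2(FPKM + 1), formaldehyde minus untreated, for the 18 tested genes: bars are differences of the group means with ± 1 SE from limma, points are each formaldehyde library minus the untreated mean. LAMB3 has the largest bar, 1.35, and a wide gap between its points, 1.91 and 0.78.

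The promoters of LAMB3 and LAMA3, whose products join in laminin-332, are shown because the ratio of the 2 chains separated the groups. LAMB3 alone did so too. RefSeq gives windows of 250 bases before to 50 after a start (GRCh38.p14) for 24 of the 34 genes, 31 windows in all. Capitals mark the AP-1 motif TGANTCA, read by FOS and JUN factors, and the GC box GGGCGG, read by SP1, on either strand.
LAMB3 chr1:209651325-209651624, minus strand: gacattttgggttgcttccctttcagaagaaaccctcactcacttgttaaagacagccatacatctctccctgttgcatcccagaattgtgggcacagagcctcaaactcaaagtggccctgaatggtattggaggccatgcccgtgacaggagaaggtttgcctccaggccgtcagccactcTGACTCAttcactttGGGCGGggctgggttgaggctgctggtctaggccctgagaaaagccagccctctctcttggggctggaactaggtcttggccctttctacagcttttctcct
LAMB3 chr1:209652280-209652579, minus strand: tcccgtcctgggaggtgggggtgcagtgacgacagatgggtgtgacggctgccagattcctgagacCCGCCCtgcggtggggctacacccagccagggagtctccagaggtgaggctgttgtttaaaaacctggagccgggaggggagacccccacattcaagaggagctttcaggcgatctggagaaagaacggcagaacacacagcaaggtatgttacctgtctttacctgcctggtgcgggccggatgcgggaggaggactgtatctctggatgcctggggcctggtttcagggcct
LAMB3 chr1:209652376-209652675, minus strand: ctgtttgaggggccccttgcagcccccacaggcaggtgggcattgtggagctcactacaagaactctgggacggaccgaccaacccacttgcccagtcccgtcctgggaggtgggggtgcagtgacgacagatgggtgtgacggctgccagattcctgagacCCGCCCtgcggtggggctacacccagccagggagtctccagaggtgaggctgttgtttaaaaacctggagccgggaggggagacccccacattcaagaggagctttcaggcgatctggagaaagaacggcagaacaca
LAMA3 chr18:23872770-23873069, plus strand: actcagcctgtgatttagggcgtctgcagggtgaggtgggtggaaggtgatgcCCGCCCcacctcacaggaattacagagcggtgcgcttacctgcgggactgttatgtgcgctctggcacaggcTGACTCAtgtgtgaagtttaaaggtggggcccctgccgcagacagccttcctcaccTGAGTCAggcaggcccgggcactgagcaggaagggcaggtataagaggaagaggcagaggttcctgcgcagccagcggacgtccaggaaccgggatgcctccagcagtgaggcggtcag

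Transcript starts were taken from GENCODE in the same build. NM_001017402 of LAMB3 starts 40 bases after the start of the first window, NM_001127641 at that of the middle window, and NM_000228 41 bases before that of the upstream window. The first window held an AP-1 match 67 bases and a GC box 52 bases before its start, and the other two, which overlap, shared a GC box 184 and 88 bases before their starts. The long LAMA3 transcript, NM_198129, starts upstream, at position -183577 relative to the start of the LAMA3 window, so that its promoter is not shown. That window belongs to the short transcripts, with NM_000227 starting 180 bases before its start, and held AP-1 matches 125 and 69 bases and a GC box 197 bases before it, so that the AP-1 matches lie downstream of the start of NM_000227. AP-1 matches occurred in 7.71% of 35116 RefSeq windows of this length and in 3 of the 31 member windows, those of ITGA5, LAMA3 and LAMB3. GC boxes occurred in 45% of all windows and in 19 of the 31, and GGAATG, the core read by TEAD factors, in 14% of windows and in 4 of the 31. A match describes letters and not binding.

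The largest difference of the 18 genes was that of LAMB3. LAMB3 (chromosome 1, hg19 209788218 to 209825820), the β3 chain found in laminin-332 of epithelial hemidesmosomes, was at 5.50 and 6.87 FPKM in untreated replicates 1 and 2. With formaldehyde it was at 25.9 FPKM in replicate 1 and at 11.3 FPKM in replicate 2. Both formaldehyde libraries were higher, and they differed from each other by more than the untreated ones did. The means were 6.19 ± 0.968 and 18.6 ± 10.3 FPKM (SD, n = 2 each), 3.01-fold, with a log2 fold change of 1.35 ± 0.41 (SE, limma unadjusted p = 0.0232, adjusted p = 0.9999). Leaving out formaldehyde replicate 1 gave a log2 fold change of 0.78, and leaving out replicate 2 gave 1.91.

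LAMB2, the β2 chain of vascular and neuromuscular basement membranes, was the most abundant laminin β chain. It was at 38.7 and 78.6 FPKM without formaldehyde and at 42.0 and 44.9 FPKM after it. Untreated replicate 2 stood alone above the other 3 libraries, and the log2 fold change was -0.34 ± 0.37 (SE, limma). LAMB1, the widely expressed β1 chain, was at 22.0 and 35.4 FPKM without formaldehyde and at 30.1 and 31.3 FPKM after it, a log2 fold change of 0.13 ± 0.28 (SE). Within laminin β FPKM, the LAMB3 share was 8.32% and 5.69% untreated and 26.5% and 12.9% with formaldehyde, and the LAMB2 share was 58.5% and 65.0% untreated and 42.8% and 51.3% with formaldehyde. Both shares separated the groups, and they are parts of the same sum.

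LAMC1, the γ1 chain of most laminins, was at 41.5 and 49.9 FPKM without formaldehyde and at 44.3 and 36.2 FPKM after it, with overlapping groups and a log2 fold change of -0.18 ± 0.22 (SE, limma). LAMC3, the γ3 chain, was at 0.143 FPKM or less, with 1 to 12 fragments a library.

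The laminin α chains were the scarce ones. LAMA3, the α3 chain of laminin-332, was at 2.63 and 5.61 FPKM without formaldehyde and at 1.93 and 3.32 FPKM after it. LAMA1, the α1 chain of embryonic basement membranes, was at 2.02 and 2.38 FPKM without formaldehyde and at 3.15 and 2.06 FPKM after it. LAMA5, the α5 chain of adult epithelial basement membranes, was at 1.20 and 3.77 FPKM without formaldehyde and at 1.71 and 1.45 FPKM after it. The groups overlapped in all 3, and the highest library was untreated replicate 2 for LAMA3 and LAMA5 and formaldehyde replicate 1 for LAMA1. LAMA4, an α chain of mesenchymal and endothelial matrix, was at 0.368 and 1.98 FPKM without formaldehyde and at 0.292 and 0.350 FPKM after it, so that the difference in means rested on untreated replicate 2. Transcripts of only 676 or 693 nt held 55.6% and 70.2% of LAMA4 untreated and 70.6% and 54.7% with formaldehyde. The other LAMA4 transcripts are 7266 to 7287 nt long, so that these values are not of long transcripts alone. LAMA2, the muscle laminin chain, was at 0.0890 FPKM or less. The sum of the α chains was at 6.27 and 13.8 FPKM without formaldehyde and at 7.18 and 7.24 FPKM after it, and the γ chains had 3.63 to 6.62 times as much in each library.

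LAMB3 had 2.09 and 1.22 times the FPKM of LAMA3 in the untreated libraries and 13.4 and 3.40 times in the formaldehyde libraries. This ratio separated the groups, but LAMB3 alone did so, while the LAMA3 groups overlapped. The ratio is therefore not independent of the LAMB3 values. How often ratios of other gene pairs separate the groups was not computed.

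Receptor pairs were described by the chain with the lower FPKM in each library, since a pair needs both chains. Of 22 known integrin pairs, 9 had a mean lower chain of at least 1 FPKM. α3β1 came first, at 120 and 176 FPKM without formaldehyde and at 182 and 193 FPKM after it. It was the only pair of the 9 higher in both formaldehyde libraries, and this was lost when FPKM were rescaled by median ratios or taken from the highest transcript of each gene. ITGA3 was its lower chain in 3 libraries and ITGB1 in formaldehyde replicate 1. In no other library was ITGB1 the lower chain of any of the 9 pairs. Each pair was scored alone, although most α chains share ITGB1. Against the summed FPKM of all α chains, ITGB1 stood at 1.07 and 0.946 times untreated and at 0.525 and 0.788 times with formaldehyde. α1β1 was the only pair of the 9 lower in both, with ITGA1 the lower chain throughout.

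The fibronectin receptor α5β1 was at 41.4 and 75.0 FPKM without formaldehyde and at 55.6 and 72.9 FPKM after it, limited by ITGA5 in every library. The vitronectin receptor αVβ5 was at 14.2 and 12.4 FPKM without formaldehyde and at 14.2 and 9.61 FPKM after it. ITGB5 was its lower chain only in untreated replicate 1 and ITGAV in the other 3 libraries, so that the higher ITGB5 values do not appear in the lower chain of the pair. The hemidesmosome receptor α6β4 was at 3.88 and 9.70 FPKM without formaldehyde and at 2.22 and 4.92 FPKM after it, limited by ITGB4 except in untreated replicate 2. α6β1 was at 7.71 to 12.4 FPKM and αVβ3 at 1.80 to 3.57 FPKM, both with overlapping groups.

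Of 13 laminin trimers and the LAMA3 and LAMB3 pair of laminin-332, 7 combinations had a mean lowest chain of at least 1 FPKM. In these 7, the α chain was the lowest in 28 of 28 library values, and 0 separated the groups in either direction. The combinations repeat 3 chains, LAMA1 in 2, LAMA3 in 3 and LAMA5 in 2, so that these are 12 different values. By gene sums, the α3 and β3 pair of laminin-332 was thus at the LAMA3 level in every library. This included those in which LAMB3 was high. The LAMA3 sum was mostly of the long transcript NM_198129, and the short NM_000227 was at 0.193 to 1.43 FPKM. Which of them supplies laminin-332 was not examined.

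**Figure D3:**
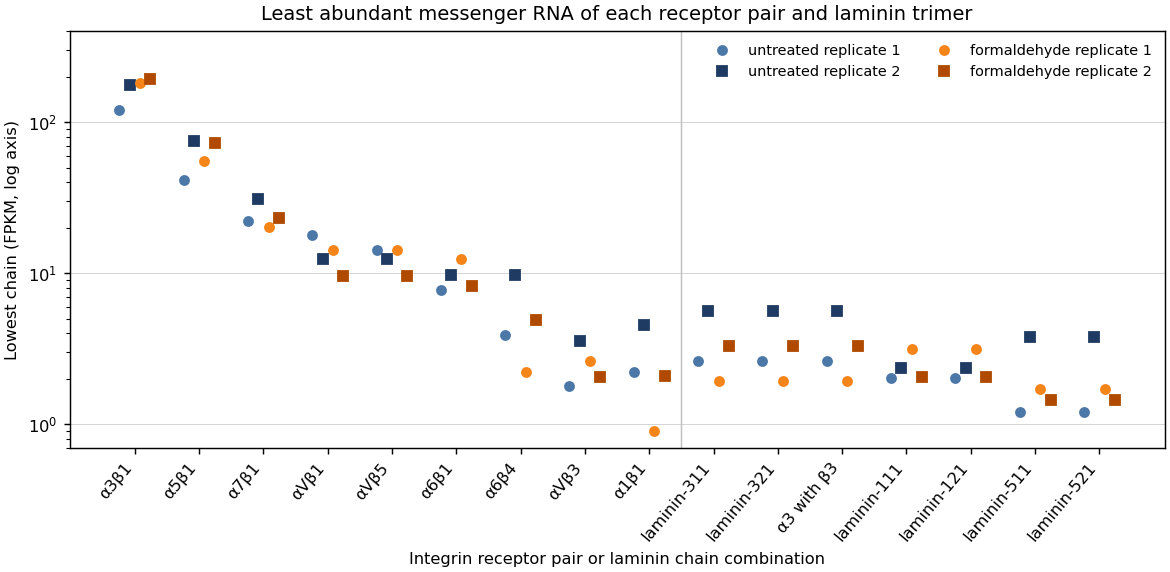
FPKM (log axis) of the least abundant chain of 9 receptor pairs and 7 laminin combinations in each library. α3β1 has 120 to 193 FPKM and separates the groups, and the laminin combinations lie between 1.20 and 5.61 FPKM, set by their α chains.

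Per transcript, 57 RefSeq transcripts of the 34 genes were listed and 24 had a mean of at least 1 FPKM. With limma over all 16722 transcripts tested, 0 of the 24 passed (background 0.0658%), and 0 had an unadjusted p under 0.05 (background 2.6%). Groups did not overlap for 3 transcripts that were higher (background 15.3%) and 3 that were lower (background 11%). The higher ones were NM_002204 of ITGA3, NM_002213 of ITGB5 and NM_001127641 of LAMB3. The lower ones were the ITGA1 transcript, NM_002211 of ITGB1 and NM_198129 of LAMA3. A transcript value is the authors' software's split of shared reads.

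The first 18 bases of the ITGA3 and ITGA6 exons printed above matched at 15 positions. Both exons encode the A form of the tail, and skipping them gives the B form. ITGA3 was listed almost wholly with its 142-nt exon, at 99.6% to 100% of the gene in every library. ITGA6 was mixed. Its transcript with the 130-nt exon, NM_000210, held 48.2% and 3.02% of ITGA6 untreated and 55.5% and 16.9% with formaldehyde. The replicate 1 libraries of both groups had the higher share, so that the replicate number and not the treatment separated the values. The replicate 1 libraries were also the shallower ones, so that replicate number and depth cannot be told apart.

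ITGB1 was mostly NM_002211, at 86.5% and 69.9% of the gene untreated and 92.8% and 60.5% with formaldehyde. That transcript was at 202 and 207 FPKM without formaldehyde and at 169 and 149 FPKM after it, lower in both, and the limma fit over transcripts gave a log2 fold change of -0.36 ± 0.21 (SE), adjusted p = 0.9999. NM_033668, which includes the 81-nt exon of the striated muscle tail, held 9.73% and 22.7% untreated and 0.774% and 31.2% with formaldehyde. It also has a start of its own, so that exon use and start use cannot be told apart in the deposited values. Its deposited interval in untreated replicate 2 ran from 0 to 136 FPKM around 67.3 FPKM.

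The ITGA7 exons follow the same 30 bases and are alternatives of 132 and 120 nt in the extracellular part that faces laminin. The transcript with the 120-nt exon, NM_002206, was the larger part in every library, at 68.9% and 66.0% untreated and 58.8% and 77.6% with formaldehyde. NM_001144996, with the 132-nt exon, held 31.1% and 33.98% untreated and 41.2% and 20.3% with formaldehyde. ITGB4 was mostly NM_001005731, at 92.7% and 88.5% of the gene untreated and 100% and 89.0% with formaldehyde. The replicate 1 libraries of both groups had the higher share. NM_000213 held 7.31% and 5.41% of ITGB4 untreated, at 0.284 and 0.787 FPKM, and close to 0% with formaldehyde.

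LAMA3 has a long transcript, NM_198129, and a short one from an inner start, NM_000227. The long one held 87.6% and 74.4% of LAMA3 untreated and 90.0% and 64.4% with formaldehyde, again higher in the replicate 1 libraries. Its FPKM was 2.30 and 4.18 untreated and 1.74 and 2.14 with formaldehyde, lower in both. The deposited intervals of untreated replicate 1 (1.78 to 2.83 FPKM) and formaldehyde replicate 2 (1.93 to 2.35 FPKM) overlapped, as did the groups of the gene sum. The short transcript, whose start lies in the printed window, was at 0.325 and 1.43 FPKM without formaldehyde and at 0.193 and 1.18 FPKM after it.

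LAMB3 transcripts differ in their first exons, at the starts whose windows are printed above. NM_000228 was at 3.67 and 3.70 FPKM untreated and at 17.6 FPKM in formaldehyde replicate 1, yet at 0.000416 FPKM in formaldehyde replicate 2. NM_001127641 was at 0.00895 FPKM or less in the first 3 libraries and at 8.88 FPKM, 78.7% of the gene, in formaldehyde replicate 2. NM_001017402, whose start lies in the window with the AP-1 match, was at 1.83 and 3.17 FPKM without formaldehyde and at 8.30 and 2.40 FPKM after it. The formaldehyde libraries thus assigned the larger part of LAMB3 to different transcripts, and the gene sum was higher in both while no transcript with a measurable untreated level was.

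**Figure D4:**
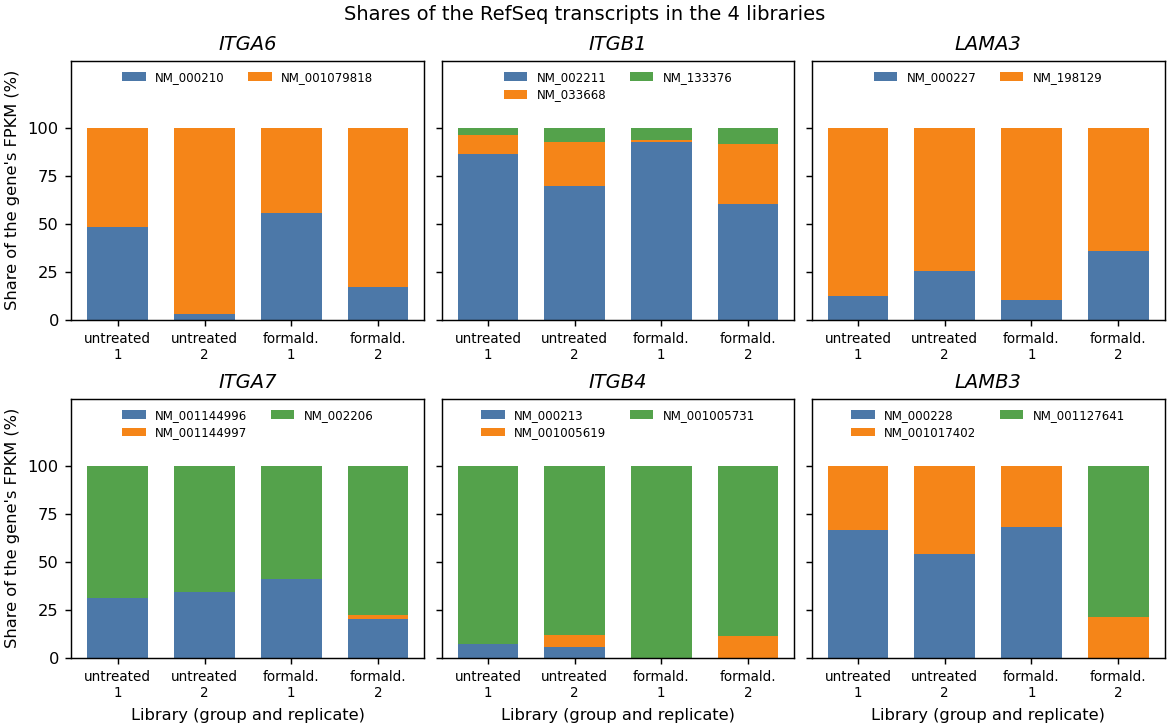
Share of the gene's FPKM (%) held by each RefSeq transcript in the 4 libraries, for the 6 of the 18 tested genes in which at least 2 transcripts reached 10% in a library. ITGA6, ITGB1, LAMA3 and, by less, ITGB4 differ by replicate number in both groups, and LAMB3 has 78.7% in NM_001127641 in formaldehyde replicate 2.

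Across the 18 genes, 7 log2 fold changes were above 0 and 11 below, with a median of -0.14 against 0.03 over all genes tested. Against the untreated mean, formaldehyde replicate 1 had a median difference of -0.02 and formaldehyde replicate 2 one of -0.18. Untreated replicate 2 held the highest value for 11 of the 18 genes (background 22.7%), untreated replicate 1 for 2 (29.4%), formaldehyde replicate 1 for 4 (26.3%) and formaldehyde replicate 2 for 1 (21.6%). Without untreated replicate 2 the median was 0.19, with 10 of 18 genes higher in both formaldehyde libraries (29.7% of all genes in that setting) and 3 lower (35%). Without untreated replicate 1 it was -0.23, with 5 of 19 higher (47% of all genes) and 11 lower (28.2%). The same library stood apart in CYR61 and CTGF, integrin ligands of the CCN family named here after their values were seen. CYR61 was at 1652 FPKM in untreated replicate 2 and at 320 to 647 FPKM in the other 3, and CTGF at 590 against 46.9 to 133 FPKM. Summed nuclear RNA markers, MALAT1 and NEAT1 among 6 found, were at 308 and 736 FPKM without formaldehyde and at 615 and 403 FPKM after it. The part of this library's state in the integrin and laminin values was not tested.

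Other genes of the pathway were read from 5 lists, and 0 of the genes in them passed the limma threshold. An unadjusted p under 0.05 was found for 7 of the 72 genes tested (background 2.76%), namely for 1 basement membrane gene (SPARC), 2 ligands (TNC and EDIL3, the second named after its values were seen), 1 adaptor (TNS3), 2 integrin-associated genes (CD82 and PLAUR) and 1 other laminin receptor (SDC2). Basement membrane partners, the proteins that crosslink and cover the laminin sheet, had 0 of 8 tested genes above 0, with a median log2 fold change of -0.57, and 4 of 8 were lower in both formaldehyde libraries. Over all genes tested, 16.2% were higher and 10.7% lower in both, which is the background for the counts of all 5 lists. SPARC, a collagen-binding matrix protein, was at 293 and 357 FPKM without formaldehyde and at 155 and 224 FPKM after it. PXDN, the peroxidase that crosslinks collagen IV, was at 74.6 and 104 FPKM without formaldehyde and at 58.6 and 62.5 FPKM after it. FBLN2, a fibulin, was at 50.7 and 72.7 FPKM without formaldehyde and at 30.3 and 43.2 FPKM after it, and HSPG2, perlecan, was the other of the 4. All 4 were highest in untreated replicate 2.

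RGD and other integrin ligands had 1 of 11 tested genes higher and 4 lower in both formaldehyde libraries, with a median of -0.34. TNC, tenascin C, was at 20.1 and 19.9 FPKM without formaldehyde and at 12.1 and 12.7 FPKM after it, and FBN1, fibrillin, at 17.4 and 17.6 FPKM without formaldehyde and at 12.6 and 12.4 FPKM after it. In these 2 genes the libraries of a group differed by little, and untreated replicate 2 did not stand out. VTN, vitronectin, the ligand of αVβ5, was at 4.85 and 9.31 FPKM without formaldehyde and at 2.67 and 3.79 FPKM after it. TGFB1, whose latent form αV integrins bind, was the gene that was higher, at 24.3 and 34.7 FPKM without formaldehyde and at 36.0 and 46.9 FPKM after it.

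Integrin adaptors and focal adhesion genes had 9 of 35 tested genes higher and 4 lower in both formaldehyde libraries, with a median of 0.04. PXN, the scaffold paxillin, was at 42.0 and 42.5 FPKM without formaldehyde and at 89.5 and 52.5 FPKM after it. VASP, an actin-filament elongation factor, was at 43.8 and 47.5 FPKM without formaldehyde and at 57.8 and 69.3 FPKM after it. TNS3, a tensin that binds the β chain tail, was at 12.7 and 12.2 FPKM without formaldehyde and at 5.50 and 8.87 FPKM after it.

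Tetraspanins and integrin-associated proteins had 4 of 9 tested genes higher and 1 lower, with a median of 0.22. CD82, a tetraspanin, was at 30.9 and 27.7 FPKM without formaldehyde and at 50.3 and 41.8 FPKM after it, and PLAUR, the urokinase receptor that associates with α3β1 and α5β1, at 26.2 and 39.2 FPKM without formaldehyde and at 82.6 and 52.2 FPKM after it. Laminin receptors other than integrins and hemidesmosome genes had 0 of 9 higher and 2 lower, with a median of 0.04. DAG1, dystroglycan, was at 84.6 and 109 FPKM without formaldehyde and at 58.2 and 71.9 FPKM after it, and SDC2, a syndecan, at 9.91 and 14.7 FPKM without formaldehyde and at 7.37 and 4.66 FPKM after it. PLEC, plectin, which ties α6β4 to keratin, was at 34.4 and 45.5 FPKM without formaldehyde and at 58.6 and 45.2 FPKM after it, with overlapping groups. COL17A1, the hemidesmosome collagen, was listed at 0 in both untreated libraries and at 0.260 and 0.0167 FPKM with formaldehyde. As with the integrins and laminins, no list here was tested as a list.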

How the data were processed

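Each deposited file lists RefSeq transcripts of 1 library with their FPKM as the authors made them, per the file headers and attributes, where this value stands beside other items in a text column. Tools named in the submitters' processing notes are Cufflinks 2.0.2, STAR 2.5.2 and, for read quality, FastQC 0.10.0, and the builds are hg19 and GRCh37. Strand, trimming and multi-read settings were not given in the sources used here. Therefore overlapping antisense genes cannot be told apart. Every file held 40255 transcripts. The 894 with no gene name (1.07% to 1.31% of FPKM) were left out, and FPKM were summed for each of 23004 gene names. Depth and fragment numbers were recovered from the deposited upper bound of genes with 1 transcript, and no count test was run.

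Genes (12407) or transcripts (16722) with a mean of at least 1 FPKM entered a fit of log2(FPKM + 1) by limma 3.58.1 (R 4.3.3), with lmFit and a mean trend in eBayes, two-sided, formaldehyde against untreated, no covariate. The Benjamini-Hochberg adjustment ran over all genes or transcripts and the threshold was 0.05. Because of the added 1, log2 fold changes of low genes are too small, and ratios in the text are of mean FPKM. The script was tested on simulated data. Pairs and trimers take the lowest chain and have no test. The members and lists were chosen with earlier results of these data known. Values in every library are given for members with a mean of at least 1 FPKM, log2 fold changes for those of at least 10 FPKM or with groups that do not overlap, and up to 4 genes of each other list by moderated t with a mean of at least 5 FPKM. Not all genes the rule allows are printed, and COL17A1, EDIL3, CYR61, CTGF and several cell type markers (CORO1A and LAPTM5 after their values were seen) were named outside it. Exons came from GENCODE v29 transcripts (GRCh38) and promoters from RefSeq (GRCh38.p14). No protein sequence was used here. Alternatives covered the pseudocount (0.1), filters, scaling, gene value, variance moderation, the replicate block and each library left out. Figures were drawn with matplotlib 3.10.9 in Python 3.11.15.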

Additional observations from a re-analysis of the deposited data

How the results depend on the processing

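In 264 recomputed log2 fold changes of the 18 genes over 15 alternatives, 0 passed the limma threshold (lowest adjusted p = 0.351, LAMB3), 251 kept their direction and 13 changed sign, 11 of them when 1 library was left out. ITGAE turned to 0.0024 with a pseudocount of 0.1 and to 0.025 with quantile normalization. With each library left out, the log2 fold changes that crossed 0 ran from -0.23 to 0.61 in ITGA5, -0.061 to 0.48 in ITGA6, -0.47 to 0.44 in ITGAE, -0.45 to 0.25 in ITGB3, -0.061 to 0.38 in LAMA1, -0.89 to 0.23 in LAMA5, -0.20 to 0.46 in LAMB1 and -0.84 to 0.16 in LAMB2. The other 10 genes kept their sign in every setting, among them ITGA1 (-1.19 to -0.40), ITGA3 (0.28 to 0.82), ITGB5 (0.28 to 0.92), ITGB4 (-1.83 to -0.16) and LAMB3 (0.78 to 1.91), with ranges over the libraries left out. With no filter, 6 genes were higher (background 11.5%) and 4 lower (background 9.43%) in both formaldehyde libraries and the median was -0.0064. Over all 23004 genes limma then called 0, with 956 at an unadjusted p under 0.05. With a mean of at least 5 FPKM, 0 genes were lower and the median was -0.024. With the highest transcript of each gene, 3 genes were lower, 4 pairs or trimers were lower and 0 were higher. For transcripts, no filter gave 8 higher and 7 lower, and a mean of at least 5 FPKM gave 1 lower. Except for genes with no filter, shares over all genes or transcripts were not computed in these settings. The counts there therefore cannot be set against a background. For pairs and trimers, the geometric mean of the chains gave 4 lower and median-ratio scaling 0 higher. The cause of these moves was not tested, beyond the change in genes or values that each setting makes.

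With each library left out, 0 genes were called, 3 to 10 were higher and 3 to 11 lower in both (over all genes in these settings, 29.7% to 47% and 19.3% to 35%), and the median ran from -0.23 to 0.19. Transcripts called were 0, with 4 to 12 higher and 5 to 14 lower (over all transcripts, 30.3% to 42.8% and 22.1% to 33.4%). Pairs and trimers, whose values repeat chains and have no such share, numbered 1 to 8 higher and 3 to 10 lower. In the 5 partner lists 0 genes were called, with 16 to 31 higher and 21 to 28 lower, to be read against the same shares over all genes. A group left with 1 library is assumed to vary like the other. Calls over all genes were 19 with 4 libraries, 1 with genes of at least 300 nt, and 55, 46, 53 and 62 without untreated replicates 1 and 2 and formaldehyde replicates 1 and 2.

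With the replicate number as a block, 29 genes were called in all and 0 of the 18, of which ITGA1, ITGB4, ITGB5 and LAMB3 had an unadjusted p under 0.05, against 7.37% of all genes (lowest limma adjusted p = 0.509). Deviations of same-numbered libraries correlated at r = 0.253 over genes. By the labels these libraries share only a number. By the recovered depth, replicate 1 was also the shallower library of each group, so that replicate number and depth cannot be told apart. Low depth limits ITGB2, ITGB6, ITGB7, ITGA4, ITGA10 and LAMC3, some with 3 or fewer fragments in a library.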
